A study of Homo sapiens with 8 samples.

Results

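Reh cells that carried a short hairpin RNA (shRNA) against CBFA2T3 were compared directly with Reh cells that expressed IKKβ(EE), an always active form of IκB kinase β. The comparison used the 2 arrays of cells with CBFA2T3 shRNA and no added kinase and the 2 arrays of cells with IKKβ(EE) and no CBFA2T3 shRNA, chosen by their titles. These are 4 of the study's 8 arrays. The other 4, from cells with control shRNA and from cells with both constructs, did not move the differences of the main fit. For that fit they are quoted only as levels or as part of the estimate of spread. Where 1 of the 4 compared arrays was left out, they also entered the estimate of the replicate block, and through it the difference and its p-value. Both compared groups were transfected transiently, per the labels. The labels state neither the time after transfection, nor the vectors, nor whether the IKKβ(EE) cells also received a control hairpin. The compared groups therefore differed in the hairpin and in the kinase at once, and from their difference alone the part of each cannot be told apart. Reh is an established human B-cell precursor line. The study's design text places its origin in acute lymphoblastic leukaemia, whereas the sample labels file it under non-Hodgkin lymphoma. Each group had 2 arrays described as biological replicates of this 1 line, with nothing more said of how they were made, so the p-values measure the spread between these arrays.

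CBFA2T3 (also called ETO2 or MTG16) is a corepressor of the ETO family. It does not bind DNA itself, but joins complexes with transcription factors such as TAL1, E proteins, LMO2 and GATA factors and brings in histone deacetylases. IκB kinase β is the catalytic subunit through which inflammatory receptors act on the canonical NF-κB pathway. It phosphorylates the IκB inhibitors, which are then degraded, and the freed NF-κB dimers enter the nucleus and switch on genes for chemokines, adhesion molecules, survival factors and their own inhibitors. In the EE form, glutamates stand in for the activation-loop serines and mimic their phosphorylation. Reh cells carry the ETV6-RUNX1 fusion common in childhood B-cell precursor leukaemia.

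All values are RMA log2 intensities of Affymetrix U133 Plus 2.0 probe sets, so a difference of 1 is a 2-fold difference. Array values are given with replicate 1 first, and a difference is always the IKKβ(EE) mean minus the CBFA2T3 shRNA mean, with its standard error (SE). A level under log2 5 was taken as close to background, where a fold is uncertain. Between 22939 and 23312 probe sets reached log2 5 on each of the 8 arrays, and the correlation between any 2 arrays lay between 0.978 and 0.995, across probe sets. The 3′ minus 5′ signal of the ACTB control probe sets, a measure of RNA integrity, was 1.52 and 1.81 with CBFA2T3 shRNA and 1.25 and 1.84 with IKKβ(EE). It was higher on the replicate 2 array of both groups. Of 9 B-cell precursor markers with a probe set, 8 were at or above log2 5 on all 4 compared arrays, among them PAX5 (12.27 and 12.26 against 12.24 and 12.31) and EBF1 (12.30 and 12.23 against 12.36 and 12.43). The exception, VPREB1, lay between 2.93 and 3.34. None of 5 T-cell markers reached log2 5, CD3D being highest at 4.92, and the monocyte marker CD14 was at most 3.58. Some markers of other cell types did reach log2 5: CSF1R lay between 4.61 and 5.28, NKG7 between 4.60 and 5.69, HBB, a globin, between 5.11 and 5.44, and COL1A1, a collagen, between 7.27 and 7.56. KRT8, an epithelial keratin, lay between 4.71 and 5.15. LYZ, another monocyte marker, was under log2 5 throughout but read 4.29 and 4.55 with the hairpin and 2.63 and 2.89 with the kinase. Fewer cells of a type and less RNA per cell cannot be told apart in such bulk samples.

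The targeted genes separated the groups in the labelled directions. CBFA2T3 read 8.40 and 8.11 on the CBFA2T3 shRNA arrays and 8.91 and 8.89 on the IKKβ(EE) arrays. The groups did not overlap, which was also so for 24.4% of all genes with IKKβ(EE) higher and for 35.2% with CBFA2T3 shRNA higher. The difference was 0.64 ± 0.14 (SE; 95% interval 0.33 to 0.96; 2 arrays a group), a 1.56-fold difference, with an adjusted p of 0.0236 in limma. The call was lost without the replicate block (adjusted p = 0.0843) and without any 1 of the 4 arrays, between 0.0608 (CBFA2T3 shRNA replicate 1) and 0.216 (CBFA2T3 shRNA replicate 2). Control shRNA arrays averaged 9.26, above both groups. IKBKB, the gene of the transfected kinase, has 3 probe sets. The one that is dim in control cells read 4.44 and 3.60 with CBFA2T3 shRNA, which is near background, and 10.85 and 10.39 with IKKβ(EE), a difference of 6.60 ± 0.28 (95% interval 5.94 to 7.26; adjusted p = 0.000144). It stayed called without the block (adjusted p = 0.000314). The other probe sets were bright in all arrays and moved little. One read 8.49 and 8.47 against 8.77 and 9.18 (0.49 ± 0.12; adjusted p = 0.0381, but 0.147 without the block and 0.291 without CBFA2T3 shRNA replicate 2), and the other differed by 0.14 ± 0.16 (adjusted p = 0.594) with overlapping groups. CSF1R, the macrophage colony-stimulating factor receptor, read 5.28 and 5.15 against 4.61 and 5.11. Its difference of -0.35 ± 0.17 (95% interval -0.74 to 0.03) did not pass the test (adjusted p = 0.179).

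Many genes differed between the groups, and more of the widest gaps were on the kinase side. Of 24481 probe sets tested with limma, 3858 (15.8%) passed an adjusted p of 0.05, 2090 (8.54%) of them higher with IKKβ(EE) and 1768 (7.22%) higher with CBFA2T3 shRNA. An unadjusted p under 0.05 was reached by 8288 probe sets (33.9%). Taking 1 probe set for each of 11449 genes, 1892 genes were called (16.5%), and 922 genes (8.05%) were called higher with IKKβ(EE) and 970 (8.47%) higher with CBFA2T3 shRNA. Although the counts were alike, the sizes were not. At least 2-fold differences numbered 264 on the IKKβ(EE) side and 70 on the CBFA2T3 shRNA side, and at least 8-fold differences 20 and 2. These sizes are not free of the filter: a probe set was tested only if at least 2 of the 8 arrays reached log2 5. Many of the largest kinase-side genes would not have passed it without arrays with the kinase. Some of the largest hairpin-side genes would not have passed it without arrays with the hairpin. The median called difference was 0.71 one way and -0.55 the other. Most calls were small and lay well above background: the lower group mean was at least log2 6 for 739 of the 922 genes and 794 of the 970.

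These counts rested on the pairing of equal replicate numbers and on single arrays. Without the replicate block 645 probe sets were called (2.63%), 443 higher with IKKβ(EE) (1.81%) and 202 higher with CBFA2T3 shRNA (0.825%). With the block, 169 were called when CBFA2T3 shRNA replicate 2 was left out, 254 without IKKβ(EE) replicate 2, 1064 without IKKβ(EE) replicate 1 and 2244 without CBFA2T3 shRNA replicate 1. No probe set called with all arrays was called in the opposite direction in any of these fits. The 2 pairs gave similar differences: across the 11449 genes the pair 1 and pair 2 differences correlated at 0.844, where genes are not independent replicates. The sign was the same in both pairs for 76.1% of tested probe sets and for every called one. The paired fit favours probe sets whose 2 differences are alike, so the latter follows largely from the calling. Of the 99 named differences that were called, 38 were called whichever of the 4 arrays was left out and 56 were called without the block.

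**Figure D1:**
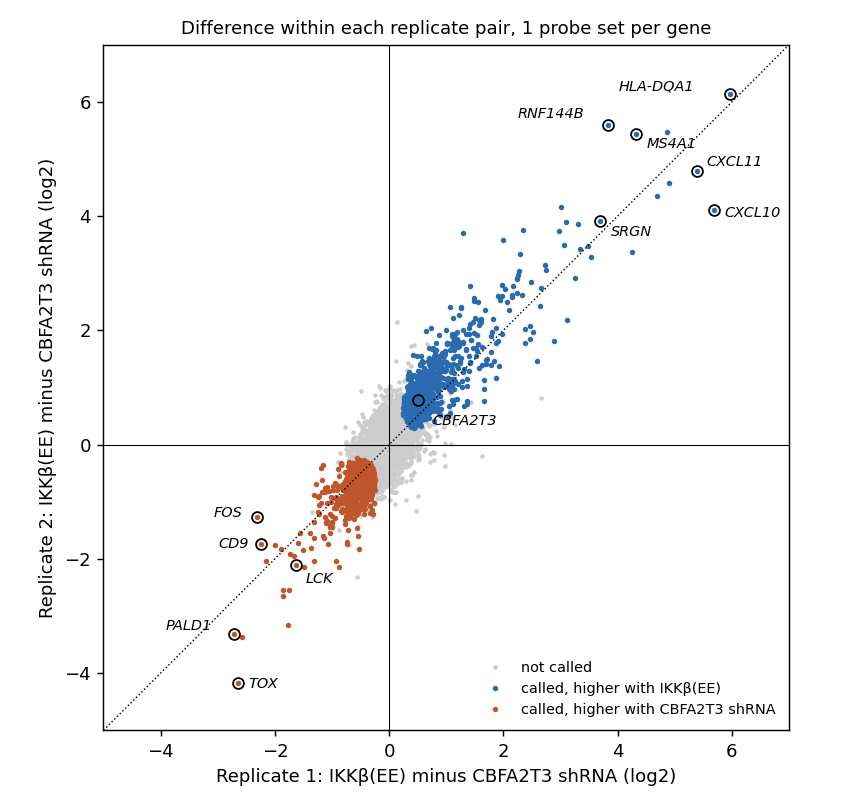
Difference between IKKβ(EE) and CBFA2T3 shRNA (log2) within replicate pair 1 (horizontal axis) and pair 2 (vertical axis), 1 point per gene, with called genes coloured and the dotted line marking equal differences. Called genes lie in the quadrants where both pairs have the same sign, which the calling itself favours. The points reach 6.05 on average for HLA-DQA1 but only -3.41 for TOX.

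The largest difference of all, 6.60 for IKBKB, lay on a probe set that is not the brightest of its gene. With each gene read from its brightest probe set, the widest gap in favour of the kinase was that of HLA-DQA1. This gene, of the α chain of an MHC class II molecule, read 4.94 and 5.73 with CBFA2T3 shRNA and 10.91 and 11.86 with IKKβ(EE), a difference of 6.05 ± 0.37 (adjusted p = 0.000491). EBI3, the β subunit of the cytokines IL-27 and IL-35, read 3.26 and 3.53 against 8.13 and 9.0 (5.17 ± 0.46; adjusted p = 0.00189). The interferon-inducible chemokines CXCL11 (2.91 and 2.97 against 8.31 and 7.75) and CXCL10 (3.71 and 5.17 against 9.39 and 9.27) differed by 5.09 ± 0.25 and 4.89 ± 0.32. EBI3 and CXCL11 were under log2 5 on both hairpin arrays, whereas HLA-DQA1 and CXCL10 passed it on replicate 2, and the kinase arrays were above log2 7 in all 4 genes. MS4A1, which encodes the B-cell antigen CD20, read 2.54 and 2.27 against 6.86 and 7.72 (4.88 ± 0.35; adjusted p = 0.000991). LAMP3, a lysosomal membrane protein of mature dendritic cells, read 4.06 and 5.13 against 8.96 and 9.71 (4.74 ± 0.28). BCL2A1, an anti-apoptotic BCL2 relative and classical NF-κB target, read 3.62 and 4.41 against 8.31 and 8.76 (4.52 ± 0.17; adjusted p = 8.82e-05). Control shRNA arrays averaged between 2.38 and 4.20 for these genes, under log2 5. None of these genes would have passed the filter without arrays with the kinase.

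Some of the genes with large kinase-side differences were already well expressed with the hairpin, so that their folds do not rest on a background level. SRGN, the proteoglycan core protein serglycin, read 7.26 and 7.81 against 10.94 and 11.72 (3.80 ± 0.22; 13.9-fold; adjusted p = 0.000448). SGK1, a serum- and glucocorticoid-regulated kinase, read 7.28 and 8.42 against 10.76 and 11.89 (3.48 ± 0.25; adjusted p = 0.00102). ICAM1, the ligand of leukocyte integrins, read 6.23 and 6.22 against 9.20 and 9.95 (3.35 ± 0.32; adjusted p = 0.00238). In each of these 3 genes both hairpin values lay below both kinase values, as they did in 24.4% of all genes. An immunoglobulin lambda constant probe set annotated to IGLC1 differed by 3.28 ± 0.20, but it shares sequence with its neighbours and only 2 of the gene's 4 probe sets were called, so the gene is uncertain. DHRS3, a retinaldehyde reductase, the growth factor PDGFA, the caveolar coat protein CAV1 and the homeobox gene IRX3 were higher with the kinase by 3.05 ± 0.36, 2.61 ± 0.23, 2.54 ± 0.14 and 2.47 ± 0.16. The remaining genes of the 15 with the largest differences were RNF144B, TNFAIP6, CCR7, GJA1, SDC2 and NR2F1-AS1, between 3.41 and 4.71. Of these only SDC2 would have passed the filter without arrays with the kinase. On the other tested probe set of TNFAIP6 the difference was 5.02.

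SDC2, a heparan sulfate proteoglycan of the cell surface, had a control level between the groups. It read 4.13 and 3.46 with the hairpin, 7.23 and 7.36 with the kinase (3.50 ± 0.20; adjusted p = 0.000448), and 5.79 on average in control cells. Cells with both constructs averaged 4.82. Among all these kinase-side genes, RNF144B lost its call without CBFA2T3 shRNA replicate 2 (adjusted p = 0.101) and IKKβ(EE) replicate 2 (0.058), GJA1 without the former (0.0572) and DHRS3 without the latter (0.0505). Without the block all 3 were called.

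The genes with the widest gap in favour of the hairpin differed by less and included lymphoid regulators. TOX, an HMG-box factor of T-cell and innate lymphoid development, read 5.67 and 6.91 with CBFA2T3 shRNA and 3.02 and 2.74 with IKKβ(EE), a difference of -3.41 ± 0.33 (adjusted p = 0.00267). TOX-DT, the divergent transcript beside TOX, read 5.59 and 6.18 against 3.84 and 3.65 (-2.15 ± 0.22). Control cells averaged 2.79 for TOX and 3.94 for TOX-DT, near the kinase arrays. LCK, a Src-family kinase of lymphocytes, read 6.67 and 7.30 against 5.05 and 5.20 (-1.87 ± 0.19; adjusted p = 0.00285), with a control mean of 4.94. PALD1, a paladin phosphatase-like protein, read 8.16 and 8.83 against 5.45 and 5.52 (-3.01 ± 0.25; adjusted p = 0.00145), and here the control mean of 6.66 lay between the groups. NOG, which encodes the BMP antagonist noggin, read 6.96 and 7.53 against 5.11 and 4.88 (-2.25 ± 0.23), again with the control mean of 6.14 between the groups. AGR2, a protein disulfide isomerase family member, read 7.58 and 8.01 against 5.01 and 4.65 (-2.97 ± 0.29; adjusted p = 0.00247).

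CD9, a tetraspanin found on many B-cell precursor leukaemias, shows what the pairing did. It read 10.44 and 11.87 with the hairpin and 8.20 and 10.12 with the kinase, so replicate 2 was higher by more than 1 in both groups while the gaps within the pairs were -2.24 and -1.75, for a mean difference of -1.99 ± 0.14. The adjusted p was 0.00102 with the block and 0.241 without it. FOS, a subunit of the AP-1 transcription factor, read 7.87 and 8.36 against 5.55 and 7.10 (-1.79 ± 0.26; adjusted p = 0.00844, and 0.115 without the block). GPR65, a proton-sensing receptor, had the smallest SE of the genes named on this side, at 8.40 and 8.66 against 6.84 and 7.12 (-1.55 ± 0.09; adjusted p = 0.000471). AK5, SUCNR1, CCM2L, LOC441179, TBC1D10C, MACROD2, FCGR1BP and ADGRG1 complete the 15 largest, between -2.46 and -1.81, and CAPSL, SLIT2, PFKFB4 and PTPRCAP lay between -1.67 and -1.40. The other tested probe set of CCM2L differed by -0.04 and was not called, so that gene is uncertain. TOX, TOX-DT, SUCNR1, MACROD2 and FCGR1BP passed the filter only through arrays with the hairpin. FCGR1BP is a pseudogene whose probe set can also bind its coding relatives, so it is uncertain which of them was measured. PFKFB4 lost its call without the block (adjusted p = 0.119) as well as without CBFA2T3 shRNA replicate 2 (0.236) and IKKβ(EE) replicate 2 (0.183). AK5, NOG, CCM2L, LOC441179, ADGRG1, FOS and SLIT2 lost theirs without CBFA2T3 shRNA replicate 2 (adjusted p from 0.0537 for AK5 to 0.0906 for LOC441179), and AK5 (0.0518) and PTPRCAP (0.0738) without IKKβ(EE) replicate 2.

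**Figure D2:**
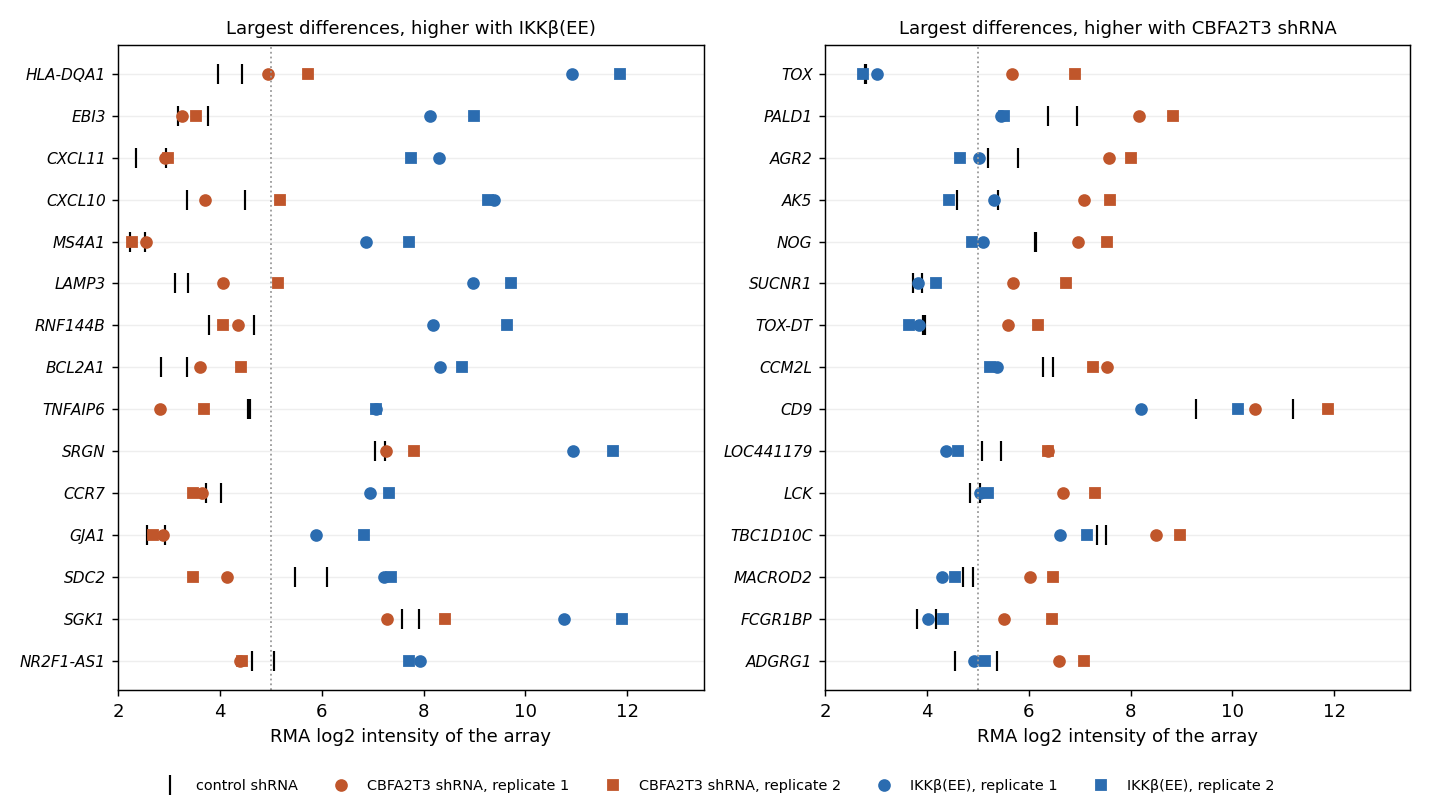
RMA log2 intensity on every array for the 15 genes with the largest called differences in each direction, coloured by group, with a circle for replicate 1, a square for replicate 2, black ticks for the control shRNA arrays and a dotted line at log2 5. In the left panel the kinase arrays stand to the right of the hairpin arrays in every gene, and most hairpin values lie under log2 5. In the right panel the order is turned, as for TOX with 5.67 and 6.91 against 3.02 and 2.74.

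Some genes of the NF-κB pathway itself were called higher with the kinase. The count of each list is to be read against all genes, of which 8.05% were called higher with IKKβ(EE) and 8.47% higher with CBFA2T3 shRNA. A probe set was tested only if at least 2 of the 8 arrays reached log2 5. Members that passed this filter only through arrays with 1 of the constructs were tested because they were high there. Of 18 tested genes for its subunits, inhibitors and kinases, 7 were called higher with IKKβ(EE), among them IKBKB itself, and 0 higher with CBFA2T3 shRNA (2 at an unadjusted p under 0.05), with a median difference of 0.44 against -0.05 over all genes. IKBKB is the gene of the transfected kinase, so its call describes the construct and not the pathway. NFKB2 passed the filter only through arrays with the kinase. NFKBIZ, an atypical nuclear IκB protein, read 6.48 and 7.22 against 8.86 and 9.24 (2.20 ± 0.18; adjusted p = 0.00142). RELB, the subunit of the non-canonical pathway, read 4.88 and 5.85 against 6.79 and 7.66 (1.86 ± 0.15; adjusted p = 0.00154), and its partner NFKB2 read 4.66 and 4.84 against 6.04 and 6.89 (1.72 ± 0.34; adjusted p = 0.0205). NFKBIA, which encodes the inhibitor IκBα that the kinase marks for degradation, read 10.61 and 10.74 against 11.87 and 12.25 (1.38 ± 0.17). RELA, which encodes the main activating subunit, had a difference of -0.29, and CHUK, the gene of the sister kinase IKKα, one of 0.24; neither was called. Without the block 3 of the 18 were called, and 2 to 4 with 1 array left out (2 when a replicate 2 array was left out). RELB (adjusted p = 0.0877) and NFKB2 (0.112) were among those lost without the block, and NFKB2 was also lost without CBFA2T3 shRNA replicate 2 (0.214), IKKβ(EE) replicate 1 (0.0755) and IKKβ(EE) replicate 2 (0.145). NFKBIA lost its call without CBFA2T3 shRNA replicate 2 (0.097) and IKKβ(EE) replicate 2 (0.0619).

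A second list held feedback and survival genes that NF-κB is known to switch on. Of 19 tested, 11 were called higher with the kinase and 0 higher with the hairpin (0 also at an unadjusted p under 0.05), and the median difference was 1.14. The count holds BCL2A1, which passed the filter only through arrays with the kinase. It therefore describes the tested members and not the list. The called genes included BCL2A1 and ICAM1, given above, and CD83, a surface marker of activated B cells and dendritic cells, which read 7.48 and 7.52 against 9.46 and 10.12 (2.29 ± 0.27; adjusted p = 0.00463). The signalling adaptor TRAF1 read 4.85 and 5.53 against 7.31 and 7.37 (2.15 ± 0.21), and the deubiquitinase CYLD, a brake on the pathway, 6.81 and 7.16 against 8.12 and 8.48 (1.31 ± 0.10). TNFAIP3, the gene of the inhibitory enzyme A20, was high in both groups, at 10.95 and 11.06 against 11.67 and 12.16 (0.91 ± 0.13; adjusted p = 0.009). SOD2, the mitochondrial superoxide dismutase, had a difference of 0.02. Without the block 9 were called. Leaving out 1 array gave between 4 (without CBFA2T3 shRNA replicate 2) and 12 (without CBFA2T3 shRNA replicate 1), and CD83 lost its call without CBFA2T3 shRNA replicate 2 (adjusted p = 0.0746) and IKKβ(EE) replicate 2 (0.0503). TRAF1 lost it without the former (0.0534), TNFAIP3 without the block (0.106), without the former (0.086) and without the latter (0.0889).

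**Figure D3:**
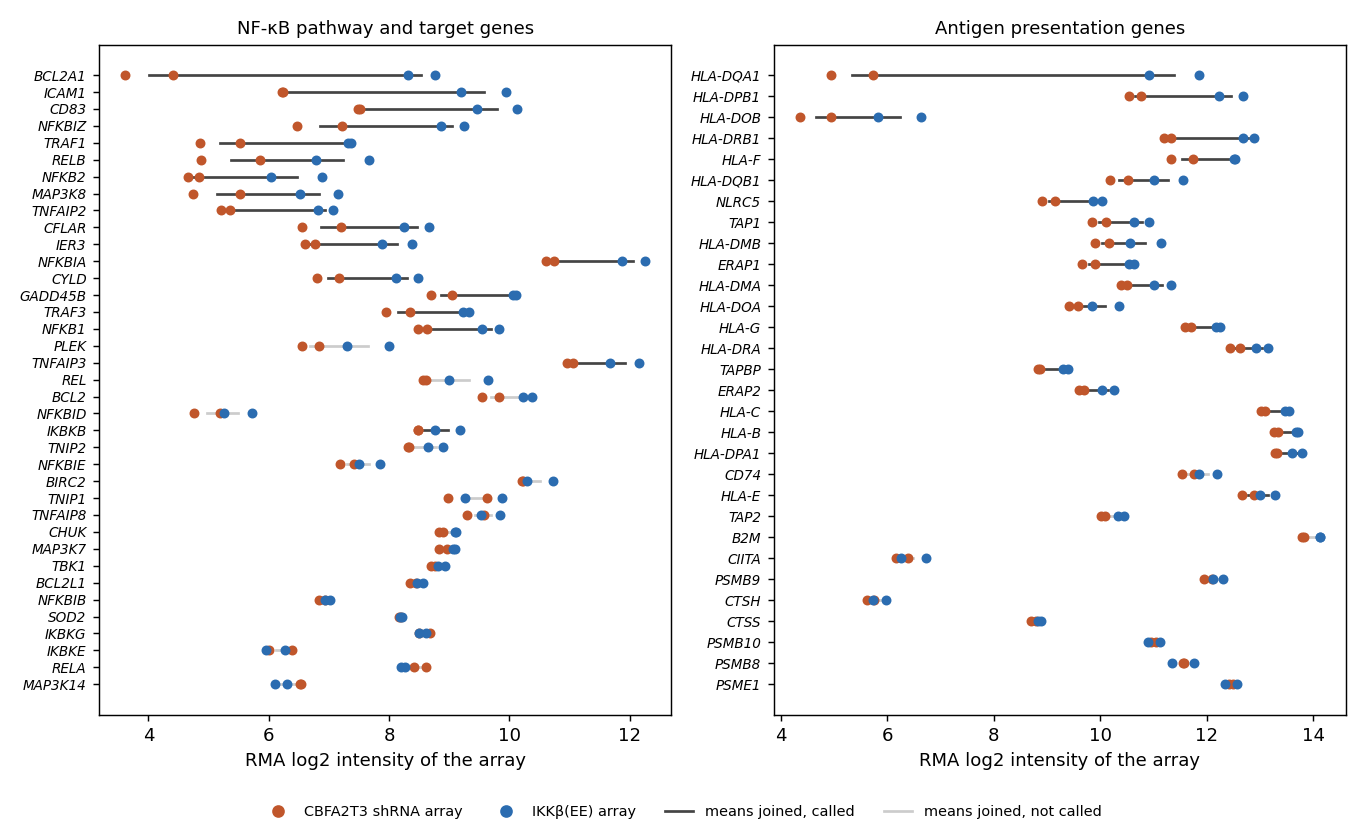
RMA log2 intensity on the 4 compared arrays for all tested members of the NF-κB lists (left) and the MHC class I and II lists (right), with a line that joins the 2 group means, dark where the gene was called. NFKBIA stands at 10.61 and 10.74 with the hairpin and 11.87 and 12.25 with the kinase, whereas for the proteasome genes PSMB8 and PSMB10 (differences of -0.01 and 0.02) the groups overlap.

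Chemokines attract leukocytes through G protein-coupled receptors. Of 10 that passed the filter on dim probe sets, 6 were called higher with IKKβ(EE), 0 higher with CBFA2T3 shRNA (0 also at an unadjusted p under 0.05). Another 9 of the list's 20 genes had a probe set but were too dim to be tested, so the 10 are not the whole family. CXCL11, CXCL9 and CCL2 passed the filter only through arrays with the kinase, and CCL22 and CCL20 only through the arrays with both constructs. CXCL10 reached log2 5 without the kinase only on CBFA2T3 shRNA replicate 2, at 5.17, and would not have passed without the kinase arrays. The count therefore describes these members and not the list. Beside CXCL10 and CXCL11, their relative CXCL9 read 4.37 and 4.17 against 7.48 and 6.35 (2.65 ± 0.24). CCL2, which attracts monocytes, read 3.41 and 2.71 against 6.14 and 5.85 (2.94 ± 0.22; adjusted p = 0.00102), and CCL5, an attractant of T cells, read 7.75 and 8.51 against 10.13 and 10.30 (2.08 ± 0.15). CXCL8, the neutrophil attractant IL-8, read 6.18 and 7.99 against 7.89 and 9.48 (1.60 ± 0.23; adjusted p = 0.00843). Its groups overlap and only the pairs separate them: without the block its adjusted p was 0.305. It also lost its call without CBFA2T3 shRNA replicate 2 (0.0874) and IKKβ(EE) replicate 2 (0.0752). The other 5 kept theirs in every fit with 1 of the 4 arrays left out and without the block.

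The 3 promoters that follow belong to the genes with the largest chemokine and cytokine differences. Each is 300 bases, from 250 before to 50 from the start site on, in RefSeq's GRCh38.p14, and capitals mark matches to the 10-base NF-κB consensus on either strand. CXCL10 lies on the minus strand at chr4:76023448-76023747, CXCL11 on the minus strand at chr4:76036021-76036320, and EBI3 on the plus strand at chr19:4229273-4229572.
CXCL10: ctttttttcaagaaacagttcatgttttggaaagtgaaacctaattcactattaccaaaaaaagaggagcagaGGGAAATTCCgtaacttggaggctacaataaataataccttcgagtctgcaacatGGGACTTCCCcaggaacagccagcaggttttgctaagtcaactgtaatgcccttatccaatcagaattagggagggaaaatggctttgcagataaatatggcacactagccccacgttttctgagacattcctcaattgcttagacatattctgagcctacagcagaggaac
CXCL11: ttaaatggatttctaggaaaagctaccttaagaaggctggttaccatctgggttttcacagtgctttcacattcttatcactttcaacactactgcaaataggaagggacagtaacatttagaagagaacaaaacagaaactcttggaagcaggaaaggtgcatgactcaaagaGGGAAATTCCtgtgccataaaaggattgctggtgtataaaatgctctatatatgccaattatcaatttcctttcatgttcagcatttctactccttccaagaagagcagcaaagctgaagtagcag
EBI3: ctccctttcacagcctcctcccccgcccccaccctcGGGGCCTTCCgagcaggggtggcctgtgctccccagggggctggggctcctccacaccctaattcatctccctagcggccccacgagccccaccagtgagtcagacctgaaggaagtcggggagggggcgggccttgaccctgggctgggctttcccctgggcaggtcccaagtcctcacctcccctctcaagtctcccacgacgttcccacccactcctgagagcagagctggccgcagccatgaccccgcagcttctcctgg

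The CXCL10 window holds 2 matches that end 168 and 113 bases before the start site. The CXCL11 window holds 1, with the same 10 letters as the farther CXCL10 match, 67 bases before its start, and the EBI3 window 1, 205 bases before. Of the 21 genes named for the largest differences in favour of the kinase, 14 had a promoter in the table and 4 of these (28.6%) held such a match, against 1 of 14 (7.14%) named for the largest differences the other way. The share was 16.8% of 756 promoters of all genes called higher with IKKβ(EE), 12.2% of 798 called higher with CBFA2T3 shRNA, 13.2% of 9361 tested genes and 11.3% of all 35116 promoters. An interferon-response motif, searched on both strands, was in 3 of the 14 promoters on the kinase side (21.4%) and 0 of the 14 on the hairpin side, against 2.93% of tested genes and 3.57% of all promoters. The RUNX letters TGTGGT were in 1 of 14 on each side (7.14%), against 9.19% of tested genes and 13.1% of all promoters. A match of this kind describes the letters only and was put to no test.

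Cytokines and their receptors carry signals between immune cells. Of 20 tested, 8 were called higher with the kinase and 0 higher with the hairpin (0 also at an unadjusted p under 0.05), with a median of 0.40. EBI3 stood far above the rest. Both EBI3 and IL6 passed the filter only through arrays with the kinase, so the count describes the tested members and not the list. IL21R, the receptor of interleukin-21, read 5.84 and 7.07 against 7.71 and 9.10 (1.96 ± 0.26; adjusted p = 0.00685), and IL6 read 4.58 and 4.06 against 5.77 and 6.03 (1.58 ± 0.19; adjusted p = 0.00512). The lymphotoxin genes LTB (8.71 and 8.75 against 10.38 and 9.73) and LTA (6.45 and 7.02 against 7.72 and 8.03) were also called higher. TNF, which lies between them in the genome, differed by 0.05 and was not called. Without the block 2 of the 20 were called, and 2 to 5 with 1 array left out (2 without IKKβ(EE) replicate 2). IL21R lost its call without the block (adjusted p = 0.242) and without CBFA2T3 shRNA replicate 2 (0.106), and IL6 without IKKβ(EE) replicate 2 (0.0541). LTB was lost without the block (adjusted p = 0.0791) and without IKKβ(EE) replicate 1 (0.0547) or 2 (0.0669). LTA was lost without the block (0.0877) and without any 1 array (0.0732 to 0.128).

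Antigen presentation genes were examined by class. For MHC class II, which shows peptides to helper T cells, 10 of 14 genes were called higher with IKKβ(EE) and 0 higher with the hairpin (0 also at an unadjusted p under 0.05; median 0.66). HLA-DQA1 and HLA-DOB would not have passed the filter without arrays with the kinase, so the count is not free of that filter. HLA-DPB1 read 10.77 and 10.54 against 12.24 and 12.68 (1.81 ± 0.16; adjusted p = 0.00189), HLA-DRB1 read 11.33 and 11.20 against 12.68 and 12.88 (1.51 ± 0.12), and HLA-DOB, of the peptide-editing HLA-DO, read 4.35 and 4.94 against 5.83 and 6.63 (1.58 ± 0.23; adjusted p = 0.0086). For both HLA-DPB1 and HLA-DRB1 the control mean (11.75 and 12.12) lay between the groups. The other tested probe set of HLA-DPB1 differed by 0.68 and was not called. CIITA, the master activator of class II genes, differed by 0.22, and CD74, the invariant chain, by 0.38; neither was called. Class II genes are near relatives of one another and probe sets can bind more than 1 of them, so single members are uncertain. Without the block 4 were called, and 3 to 8 with 1 array left out (3 when a replicate 2 array was left out). HLA-DOB lost its call without the block (adjusted p = 0.0645), without CBFA2T3 shRNA replicate 2 (0.11) and without IKKβ(EE) replicate 2 (0.0837).

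In MHC class I presentation 10 of 16 genes were called higher with the kinase, 0 higher with the hairpin (0 also at an unadjusted p under 0.05), and the median was 0.42. These differences were smaller and lay on very bright probe sets. HLA-F, a non-classical class I gene, read 11.33 and 11.75 against 12.51 and 12.54 (0.99 ± 0.12; adjusted p = 0.00512). NLRC5, the activator of class I genes, read 8.91 and 9.15 against 10.03 and 9.86 (0.92 ± 0.18; adjusted p = 0.0198), and the peptide transporter TAP1 read 9.85 and 10.10 against 10.92 and 10.64 (0.81 ± 0.14; adjusted p = 0.014). The immunoproteasome genes PSMB8, PSMB9 and PSMB10 had differences of -0.01, 0.19 and 0.02 and were not called. Without the block 3 of the 16 were called, and 1 to 4 with 1 array left out (1 without IKKβ(EE) replicate 2). NLRC5 was lost in all 4 of these fits (adjusted p from 0.0918 to 0.115, and 0.0512 without the block), and TAP1 without IKKβ(EE) replicate 1 (0.0837) or 2 (0.0752).

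Interferon-induced antiviral genes were called in both directions. Of 40 tested, 8 (20%) were called higher with IKKβ(EE) and 4 (10%) higher with CBFA2T3 shRNA, the latter near the 8.47% of all genes, and the median was 0.16. The guanylate-binding proteins, large GTPases that attack intracellular pathogens, led one side. Of these, GBP5 and GBP2 would not have passed the filter without arrays with the kinase, so the count is not free of that filter. GBP5 read 4.03 and 4.55 against 7.28 and 7.47 (3.08 ± 0.25; adjusted p = 0.00141), GBP4 read 5.13 and 5.95 against 7.71 and 7.42 (2.03 ± 0.28; adjusted p = 0.00786), and GBP2 read 4.96 and 5.53 against 6.82 and 6.68 (1.51 ± 0.33; adjusted p = 0.0251). The RNA sensor IFIH1 (MDA5) read 8.42 and 9.03 against 10.07 and 10.16 (1.39 ± 0.15). On the other side stood IFIT5, which binds viral RNA ends, at 8.11 and 8.17 against 7.54 and 6.70 (-1.02 ± 0.20; adjusted p = 0.0199), the ubiquitin ligase family member HERC6, at 7.52 and 8.0 against 7.15 and 7.05 (-0.66 ± 0.15; adjusted p = 0.0289), and the 2′-5′ oligoadenylate synthetases OAS1 (-0.42 ± 0.10) and OAS2 (-0.38 ± 0.10). OAS1 was called on 1 of its 2 tested probe sets. ISG15, IFI44L and IFIT1 had differences of -0.64, -0.59 and -0.47 that did not pass the test. Without the block 3 and 0 were called. With 1 array left out the counts were 2 to 3 and 0 to 6, the 6 without CBFA2T3 shRNA replicate 1 and the 0 when a replicate 2 array was left out; under cyclic loess scaling the hairpin side had 2. GBP2, OAS1 and OAS2 lost their calls without any 1 of the 4 arrays (adjusted p from 0.094 to 0.171, from 0.0922 to 0.242 and from 0.102 to 0.233), GBP4 without IKKβ(EE) replicate 2 (0.0537), and IFIH1 without CBFA2T3 shRNA replicate 2 (0.0521). IFIT5 lost its call without CBFA2T3 shRNA replicate 2 (0.192) and IKKβ(EE) replicate 2 (0.145), and HERC6 without these (0.216 for each) and IKKβ(EE) replicate 1 (0.0665).

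B-lineage transcription factors were called about as often as all genes. Among 19 tested, 1 was called higher with the kinase and 2 higher with the hairpin, against 8.05% and 8.47% of all genes (median 0.16), and PAX5, EBF1 and TCF3 had differences of 0.01, 0.13 and -0.11. IKZF3, the factor Aiolos, read 5.37 and 5.23 against 5.79 and 6.02 (0.60 ± 0.13; adjusted p = 0.0238). BCL6, the germinal-centre repressor, read 11.68 and 12.08 against 10.87 and 11.33 (-0.78 ± 0.11; adjusted p = 0.00751), and SPIB, an Ets factor of B cells, read 7.36 and 7.67 against 6.43 and 6.75 (-0.93 ± 0.22; adjusted p = 0.0318). None of the 3 was called without the block (adjusted p from 0.0693 to 0.112), nor without CBFA2T3 shRNA replicate 2 (0.102 to 0.23) or IKKβ(EE) replicate 2 (0.0537 to 0.193).

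B-cell surface and receptor genes were called both ways, 7 of 26 (26.9%) higher with the kinase and 5 (19.2%) higher with the hairpin (median 0.24). Of all genes 8.05% and 8.47% were called. MS4A1 and CCR7 passed the filter only through arrays with the kinase, and FCRLA only through arrays with the hairpin. The counts therefore describe the tested members and not the list. The kinase side held MS4A1, the homing receptor CCR7 (3.64 and 3.47 against 6.95 and 7.33; 3.58 ± 0.23; adjusted p = 0.000511), the costimulatory receptor CD40 (7.23 and 7.52 against 8.77 and 9.44; 1.73 ± 0.20; adjusted p = 0.00445) and the early activation antigen CD69 (8.79 and 9.74 against 10.34 and 11.37; 1.59 ± 0.14). The hairpin side was led by CD48, an adhesion molecule, at 9.64 and 9.96 against 8.45 and 8.94 (-1.10 ± 0.10; adjusted p = 0.00232). TCL1A, an AKT coactivator, read 10.42 and 10.54 against 9.66 and 9.57 (-0.87 ± 0.14; adjusted p = 0.0109). FCRLA, an intracellular Fc receptor-like protein, read 4.73 and 5.46 against 4.0 and 4.48 (-0.85 ± 0.18; adjusted p = 0.0222). Recombination and surrogate light chain genes such as RAG1 (0.23) and IGLL1 (-0.21) were not called. Without the block 2 and 1 were called, and CD40 (adjusted p = 0.0605), CD69 (0.162), CD48 (0.0591) and FCRLA (0.154) were among the losses. With 1 array left out 3 to 4 were called on the kinase side (3 without CBFA2T3 shRNA replicate 2) and 1 to 5 on the hairpin side (5 without CBFA2T3 shRNA replicate 1, 1 in the other fits). Without CBFA2T3 shRNA replicate 2 the losses included CD40 (0.0756), TCL1A (0.129) and FCRLA (0.217).

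T-cell and NK-cell genes were mostly too dim to test. Of 23 genes, 8 passed the filter, and of these 0 were called higher with the kinase (0 also at an unadjusted p under 0.05) and 3 higher with the hairpin: TOX, LCK and NKG7, a granule protein of cytotoxic lymphocytes. TOX and NKG7 passed the filter only through arrays with the hairpin, so the count describes these members and not the list. NKG7 read 5.43 and 5.69 against 4.60 and 4.69 (-0.92 ± 0.14; adjusted p = 0.0104), close to background. The 5 T-cell markers were under log2 5 on all 4 arrays, and their summed log2 levels were 19.7 and 20.2 with the hairpin and 20.3 and 20.5 with the kinase. The NK markers KLRD1 and GNLY were at most 3.75 and 4.25. All 3 calls held without the block. LCK and TOX held in all fits with 1 of the 4 arrays left out, and NKG7 was lost without CBFA2T3 shRNA replicate 2 (0.132), IKKβ(EE) replicate 1 (0.0554) and IKKβ(EE) replicate 2 (0.0919).

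The LCK promoter window of RefSeq, on the plus strand at chr1:32251015-32251314 in GRCh38.p14, is shown because it was the only one among the 14 with a promoter on the hairpin side that held the NF-κB consensus, here in capitals.
LCK: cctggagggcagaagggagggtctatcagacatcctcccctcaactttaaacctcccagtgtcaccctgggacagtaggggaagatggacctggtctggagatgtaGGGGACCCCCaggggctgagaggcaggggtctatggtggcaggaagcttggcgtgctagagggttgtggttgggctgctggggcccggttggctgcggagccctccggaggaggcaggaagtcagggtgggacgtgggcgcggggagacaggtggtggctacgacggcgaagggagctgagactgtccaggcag

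Most myeloid and dendritic genes were dim as well. Of 24, 9 passed the filter, 3 of them called higher with the kinase (LAMP3, CCR7 and FSCN1) and 1 higher with the hairpin (CEBPB). LAMP3 and CCR7 would not have passed it without arrays with the kinase, so the count describes these members and not the list. FSCN1, the actin-bundling protein fascin of mature dendritic cells, read 5.90 and 5.81 against 8.13 and 8.73 (2.58 ± 0.27; adjusted p = 0.0032). CEBPB, a basic leucine zipper factor, read 10.47 and 10.85 against 9.99 and 10.28 (-0.52 ± 0.11; adjusted p = 0.0226). The summed log2 level of the 3 monocyte markers with a probe set (CD14, LYZ and CSF1R) was 13.1 and 13.3 with the hairpin and 10.4 and 11.4 with the kinase, opposite in direction to LAMP3, CCR7 and FSCN1; CD14 and LYZ were under log2 5 on all 4 arrays, and the part of such cells in these results was not tested. CEBPB was lost without the block (adjusted p = 0.263) and without any 1 array (0.0688 to 0.195), and FSCN1 without CBFA2T3 shRNA replicate 2 (0.0671).

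Among progenitor and leukaemia genes 2 of 14 (14.3%) were called higher with the kinase (LMO2 and CD99) and 1 (7.14%) higher with the hairpin (CD9). Of all genes 8.05% and 8.47% were called, so these small counts do not set the list apart. CD99, a surface glycoprotein raised on many leukaemic blasts, read 10.04 and 10.60 against 10.65 and 11.24 (0.62 ± 0.12; adjusted p = 0.017). It was not called without the block (0.224) or without any 1 array (0.0583 to 0.157).

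Of 19 tested genes for CBFA2T3 and its partners, 3 (15.8%) were called higher with the kinase (CBFA2T3 itself, LMO2 and ID2) and 3 (15.8%) higher with the hairpin. The shares over all genes were 8.05% and 8.47%, and the median of the list was 0.02. CBFA2T3 is the target of the hairpin, so its call describes the construct and not the partners. LMO2, the LIM-only bridge of the TAL1 complex, read 7.23 and 6.21 against 8.24 and 7.97 (1.38 ± 0.22; adjusted p = 0.0109). Its control mean of 8.49 lay near the kinase arrays. ID2, an inhibitor of E proteins, read 9.22 and 9.78 against 10.32 and 10.93 (1.12 ± 0.16; adjusted p = 0.00911), whereas its relative ID3 went the other way, at 10.63 and 11.05 against 10.16 and 10.01 (-0.76 ± 0.16; adjusted p = 0.0248). GATA3, a T-lineage zinc finger factor, read 7.68 and 8.53 against 6.61 and 7.51 (-1.05 ± 0.22; adjusted p = 0.0221), and LDB1, which joins LMO2 to distant enhancers, 8.08 and 8.16 against 7.59 and 7.47 (-0.59 ± 0.13; adjusted p = 0.0266). Of the tested probe sets, 1 of 3 for GATA3 and 1 of 2 for LDB1 were called. TAL1 and LYL1 had differences of 0.02 and -0.50 and were not called. Without the block none of the 19 was called in limma (adjusted p from 0.0699 for LMO2 to 0.258 for GATA3 among the 6), and with 1 array left out 0 to 2 were called on each side, 0 when a replicate 2 array was left out. Without CBFA2T3 shRNA replicate 2 the adjusted p ranged from 0.104 (LMO2) to 0.233 (LDB1).

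Adhesion and migration genes were called in both directions. Of 18, 8 (44.4%) were higher with the kinase and 4 (22.2%) higher with the hairpin, against 8.05% and 8.47% of all genes (median 0.72). Beside SRGN, SDC2 and ICAM1, the adhesion receptor CEACAM1 read 6.55 and 6.30 against 8.34 and 8.19 (1.84 ± 0.11; adjusted p = 0.000448). On the hairpin side were CDC42EP3, a Cdc42 effector of the actin cytoskeleton (6.61 and 7.61 against 5.29 and 5.58; -1.67 ± 0.32; adjusted p = 0.019), the Slit receptor ROBO1 (7.82 and 8.72 against 6.67 and 7.08; -1.39 ± 0.22; adjusted p = 0.0109) and the laminin-binding integrin chain ITGA6 (6.0 and 6.05 against 5.25 and 5.08; -0.86 ± 0.10; adjusted p = 0.00493). SLIT2, a ligand of ROBO1 and one of the genes named above, was on the same side, at 9.12 and 9.34 against 7.80 and 7.71 (-1.47 ± 0.16). Without the block 6 and 1 were called. With 1 array left out the counts were 4 to 6 and 0 to 4, with 0 on the hairpin side when a replicate 2 array was left out. CDC42EP3 (adjusted p = 0.0819) and ROBO1 (0.069) were lost without the block. Without CBFA2T3 shRNA replicate 2, CDC42EP3 (0.203), ROBO1 (0.131) and ITGA6 (0.0746) were lost.

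Of 26 immediate early and feedback genes, 5 (19.2%) were called higher with the kinase and 2 (7.69%) higher with the hairpin (median 0.21). Over all genes the shares were 8.05% and 8.47%, so the hairpin count is near that of all genes. EGR3 passed the filter only through arrays with the kinase. EGR1, a zinc finger factor induced within minutes of growth signals, read 6.70 and 6.93 against 8.20 and 9.14 (1.86 ± 0.44; adjusted p = 0.0318), and its relative EGR3 read 2.37 and 3.24 against 3.80 and 5.07 (1.63 ± 0.31; adjusted p = 0.0187), near background. DUSP6, a phosphatase that limits ERK signalling, read 10.72 and 10.42 against 11.47 and 11.89 (1.11 ± 0.17; adjusted p = 0.00973). FOS, given above, and KLF2, a quiescence factor of lymphocytes that read 8.16 and 9.04 against 6.92 and 8.12 (-1.08 ± 0.15; adjusted p = 0.00826), were the 2 on the hairpin side. Of KLF2 the higher kinase value lay below the lower hairpin value by little, and its adjusted p without the block was 0.368. Without the block 1 and 0 were called, and EGR1 (0.101) and EGR3 (0.23) were lost. With 1 array left out the counts were 0 to 2 and 1 to 2, and EGR1 was lost without any 1 of the 4 (0.0837 to 0.261). DUSP6 was lost without CBFA2T3 shRNA replicate 2 (0.111) and IKKβ(EE) replicate 2 (0.0847).

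Of 22 apoptosis genes, 3 (13.6%) were called higher with the kinase and 1 (4.55%) higher with the hairpin, against 8.05% and 8.47% of all genes (median 0.12). Without the block the counts were 2 and 0, and with 1 array left out 1 to 4 and 0 to 2 (1 and 0 when a replicate 2 array was left out). BCL2A1 led again, but it passed the filter only through arrays with the kinase. The kinase-side count therefore describes the tested members and not the list, and its share is not free of that filter. FAS, a death receptor, read 5.83 and 5.99 against 8.10 and 9.03 (2.66 ± 0.32; adjusted p = 0.00512), and CFLAR, which encodes the caspase-8 inhibitor cFLIP, read 6.55 and 7.19 against 8.24 and 8.67 (1.58 ± 0.21; adjusted p = 0.00685). For CFLAR 7 of 12 probe sets were called higher with the kinase. The BH3-only gene HRK read 5.69 and 6.68 against 5.38 and 5.97 (-0.51 ± 0.12; adjusted p = 0.0311), and its groups overlap. Of its 3 tested probe sets 1 was called. HRK was lost without the block (0.517), without CBFA2T3 shRNA replicate 2 (0.252) and without IKKβ(EE) replicate 1 (0.0644) or 2 (0.241). CFLAR was lost without the block (0.0749), without CBFA2T3 shRNA replicate 2 (0.0991) and without IKKβ(EE) replicate 2 (0.0503). FAS was lost without the same arrays (0.0899 and 0.0509). FAS is also a p53 target, and 3 of 20 p53 targets (15%) were called higher with the kinase, against 8.05% of all genes. With the hairpin 0 were higher (2 at an unadjusted p under 0.05; median 0.19). Without the block 1 was called, and 0 when a replicate 2 array was left out. The others were MDM2, the ubiquitin ligase of p53 (10.30 and 10.37 against 11.22 and 11.70; 1.12 ± 0.14; adjusted p = 0.00512), and ZMAT3 (0.74 ± 0.19; adjusted p = 0.0381), both lost without the block (0.0591 and 0.192) and without CBFA2T3 shRNA replicate 2 (0.0537 and 0.308). For MDM2 5 of 8 tested probe sets were called higher with the kinase. CDKN1A, which encodes the cell cycle inhibitor p21, differed by 0.35 and was not called.

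Lipid synthesis genes were called on the hairpin side. Of 21 cholesterol and lipid synthesis genes, 0 were called higher with the kinase (1 at an unadjusted p under 0.05) and 9 (42.9%) higher with the hairpin. Over all genes 8.47% were called higher with the hairpin. The median of the list was -0.46. LSS, lanosterol synthase, read 10.23 and 10.48 against 9.47 and 9.55 (-0.85 ± 0.11; adjusted p = 0.00679). FASN, fatty acid synthase, read 8.43 and 8.81 against 7.97 and 7.68 (-0.79 ± 0.17; adjusted p = 0.0244), and DHCR7, the last enzyme of cholesterol synthesis, 9.99 and 10.05 against 9.27 and 9.34 (-0.71 ± 0.13; adjusted p = 0.0162). The groups did not overlap in any of these, which was also so, with CBFA2T3 shRNA higher, for 35.2% of all genes. Control means were 9.76, 8.07 and 9.52, between the groups. Without the block 1 of the 21 was called, with LSS at 0.0502, FASN at 0.063 and DHCR7 at 0.0578. With 1 array left out 0 to 4 were called, 0 when a replicate 2 array was left out, and without CBFA2T3 shRNA replicate 2 the 3 named genes had adjusted p-values from 0.0938 to 0.227.

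MYC and ribosome biogenesis genes were similar, with 0 of 17 higher with the kinase (0 also at an unadjusted p under 0.05). Higher with the hairpin were 4 (23.5%), against 8.47% of all genes (median -0.30). SRM, spermidine synthase, read 9.91 and 9.67 against 9.30 and 8.56 (-0.86 ± 0.14; adjusted p = 0.0108). NOP16 (-0.67 ± 0.14) and RRP9 (-0.53 ± 0.11), nucleolar proteins of ribosome assembly, followed. NOP16 was called on 2 of its 3 tested probe sets. MYC itself had a difference of -0.30 and was not called. None of the 17 was called without the block (0.171 to 0.264 for the 3 named), and 0 to 2 were called with 1 array left out. Without CBFA2T3 shRNA replicate 2 the 3 had adjusted p-values from 0.109 to 0.203.

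Cell cycle genes were rarely called, which at 2 arrays a group does not show that they were alike. None of 28 replication and S-phase genes was called in limma (at an unadjusted p under 0.05, 1 was higher with the kinase and 2 higher with the hairpin). The median was -0.03, with 12 differences above 0 and 16 below. The extremes were UNG, a uracil glycosylase, at 9.76 and 9.15 against 9.96 and 9.64 (0.35 ± 0.19; adjusted p = 0.248), and the licensing factor CDT1, at 9.43 and 9.51 against 8.90 and 8.81 (-0.62 ± 0.18; adjusted p = 0.0591). CDT1 passed with the 4 arrays fitted alone (0.0265). Of 28 G2/M genes, 23 had differences below 0 and the median was -0.17, against -0.05 over all genes. Of these 28, 0 were called higher with the kinase (1 at an unadjusted p under 0.05) and 1 higher with the hairpin, the spindle midzone protein PRC1 (10.39 and 10.53 against 10.01 and 9.91; -0.50 ± 0.13; adjusted p = 0.0427), which was lost without the block (0.106) and without any 1 array (0.0599 to 0.316). Of 17 heat shock genes, HSPA6, a stress-inducible HSP70, was the 1 called higher with the kinase and 0 were called the other way (3 at an unadjusted p under 0.05). HSPA6 was called on 1 of its 2 tested probe sets. It read 4.07 and 4.03 against 5.17 and 4.81 (0.94 ± 0.17; adjusted p = 0.0153), close to background, and passed the filter only through arrays with the kinase. It was lost without any 1 array (0.0537 to 0.152).

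**Figure D4:**
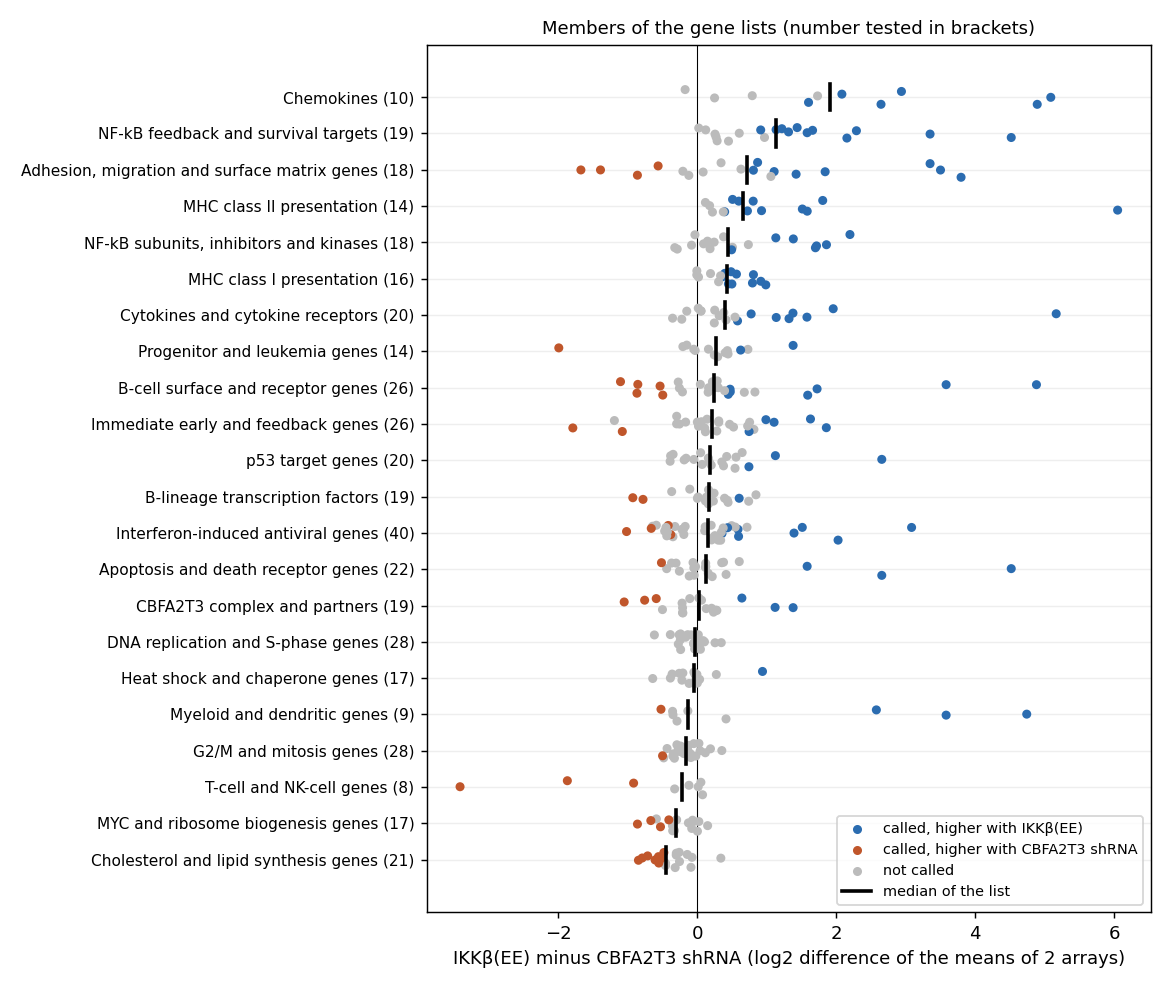
Difference between IKKβ(EE) and CBFA2T3 shRNA (log2; positive is higher with the kinase) for every tested member of the 22 gene lists, with called members coloured, a black bar at each list's median and the number tested in brackets. Members too dim to be tested are not drawn. The points reach 6.05 for HLA-DQA1 to the right and -3.41 for TOX to the left, and the cholesterol and lipid synthesis list has its median at -0.46.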

How the data were processed

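Total RNA of 8 Reh cultures, 2 per group, was hybridised to Affymetrix U133 Plus 2.0 arrays. The authors deposited log2 intensities made with RMA, per the submitters' processing notes, where the log base was read from the range of the values. No source used here gives the version of RMA or the annotation it used. The sorted values of each array lay within 0.0853 of their mean over the arrays. Of 54675 probe sets, 62 controls were left out. A further 30132 were dim, with fewer than 2 arrays at log2 5 or above, and 24481 were tested. Genes came from the platform annotation (20746 tested probe sets had 1 symbol), and each of 11449 genes was read from its brightest probe set.

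Differences were fitted with limma 3.58.1 in R 4.3.3 on all 8 arrays, with 1 mean per group and the replicate number as a block, and p-values were adjusted by Benjamini-Hochberg over all 24481 probe sets. For a single value, exact permutation of 2 against 2 arrays has a smallest p of 0.333. The block follows the pairing rule of the comparison. The replicate 2 minus replicate 1 differences correlated between groups at 0.344 to 0.577 across probe sets. The fit was also run on simulated data with 200 changed probe sets in each of 10 draws. It found 98.6% of the 2-fold ones and 100% of the 4-fold ones, and 7.11% of its calls were false. The noise was normal, independent between probe sets and drawn from the fit's own spread and block, so the model held there by construction. These shares therefore do not measure how many of the real calls are false.

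Genes were named as the 15 largest called differences each way without overlap, the 8 largest each way with both group means at log2 6 or more, CBFA2T3, IKBKB and CSF1R, and up to 3 called genes at each end of each list, or the extremes where none was called. Other genes named were chosen after their values were seen. The members and lists were chosen with earlier results of these data known. Promoters are RefSeq's of GRCh38.p14. Alternatives covered the block, the arrays fitted, the floor, scaling, array weights, eBayes settings and each array left out.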

Additional observations from a re-analysis of the deposited data

How the results depend on the processing

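The replicate block decided most calls. Without the replicate block 645 probe sets were called, 443 higher with IKKβ(EE) and 202 higher with CBFA2T3 shRNA, and on the 4 compared arrays alone without it 357, 276 and 81. The CBFA2T3 difference was 0.643 in both of these fits and no longer called (adjusted p = 0.0843 and 0.0949 in limma). No floor on dim probe sets gave 2386 calls (925 higher with CBFA2T3 shRNA), 1 probe set per gene 2282 (1049 higher with IKKβ(EE)), and a difference of at least 1 on the log2 scale 592 (470 and 122). With 1 of the 8 arrays left out, the calls ranged from 169 to 4173, those higher with IKKβ(EE) from 135 to 2278, those higher with CBFA2T3 shRNA from 34 to 1895, and the CBFA2T3 difference from 0.549 to 0.737. Beside CBFA2T3, 42 named values lost their call without the block, 3 on the 4 arrays with it and 1 under cyclic loess. In no fit run was a called probe set called in the opposite direction. Cyclic loess changed 2 of 44 list counts by over 1.5 times and equal array medians changed 0. With 2 arrays a group, precision is limited by their number, and values under log2 5 lie near background.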

Other observations

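The level in control shRNA cells was not used in the comparison and is given here as a description, for genes picked after their values were seen. Of the 922 genes called higher with IKKβ(EE), the control mean lay between the group means for 600, above both for 151 and below both for 171. Of the 970 called higher with CBFA2T3 shRNA it lay between for 794, above both for 23 and below both for 153. EGR1 and FOS, immediate early transcription factors, had control means of 4.95 and 4.92, below both groups, although EGR1 was higher with the kinase and FOS higher with the hairpin. GATA3 (5.86), SPIB (5.78) and CDC42EP3 (3.89), called higher with the hairpin, were also lower in control cells than in either group, as was the activation antigen CD69 (7.78). CBFA2T3 (9.26) and LMO2 (8.49) were higher in control cells than in either group.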
